A study of Mus musculus with 15 samples.

Results

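The 4 control mammary glands of the study fell into a pair rich in adipocyte transcripts and a pair poor in them, and the genes that separated the pairs are described here, among adipocyte genes and outside them. The pairs were set by a measured value. Glands with Adipoq, the adipocyte hormone adiponectin, at 500 TPM (transcripts per 1000000, the unit of the files) or more formed the fat-rich pair, and glands under 500 TPM the fat-poor pair. Adipoq was 1718 TPM in gland 133, 1946 TPM in gland 392, 10.2 TPM in gland 417_3 and 10.8 TPM in gland 517_3, so the glands nearest to the limit were 133 above it and 517_3 below it. Gland 133 was sequenced again as a technical replicate in sequencing batch 2, here called its repeat library although the labels do not say whether the library was remade, and gave 2277 TPM. These 4 glands are 4 of the 15 libraries from 13 mice in the series, whose other libraries come from mammary tumors. Because the pairs were chosen on a readout of the same libraries, no test was run between them, and every value below is a description of 2 glands against 2.

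All 4 glands came from virgin females that carried MMTV-Cre (line D, Cre recombinase driven by the mouse mammary tumor virus promoter in mammary epithelium) and no Trim24 transgene. They were freshly isolated, free of disease and described as age-matched to the tumors, with no age given. The sample labels give the strain as FVB and the study's design text gives a mixed FVB/129 background. Each gland is 1 mouse and 1 whole tissue sample, and which of the mammary glands was taken is not given in the sources used here.

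The mouse mammary gland is a branching tree of epithelial ducts embedded in a pad of white fat. Luminal cells line the ducts and make milk, basal (myoepithelial) cells surround them and contract, and the fat pad around both holds adipocytes, blood vessels, fibroblasts, macrophages and, in some glands, a lymph node. A bulk library measures all of these at once. In such samples fewer cells of a type and less RNA per cell cannot be told apart, and since TPM are shares of a fixed total, a large rise in one tissue lowers the share of the others.

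The 2 fat-poor glands were nearly alike. Of 15876 genes at 1 TPM or more in at least 2 of the 4 glands, 3.05% were at least 2-fold apart between glands 417_3 and 517_3, on the log2(TPM + 1) scale. That is less than the 4.47% between the first and the repeat library of gland 133, which are the same tissue in different batches. Among genes averaging 10 TPM or more, the median absolute difference on this scale was 0.22 in both comparisons. The 2 fat-rich glands differed more, with 8.36% of genes at least 2-fold apart. Between a fat-rich and a fat-poor gland the share ran from 31.3% for 133 and 517_3 to 40.8% for 392 and 417_3. Read counts were not used, and whether glands 417_3 and 517_3 differ by more than sampling noise was not tested. The fat-poor pair may therefore carry less independent information than 2 mice would.

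**Figure D1:**
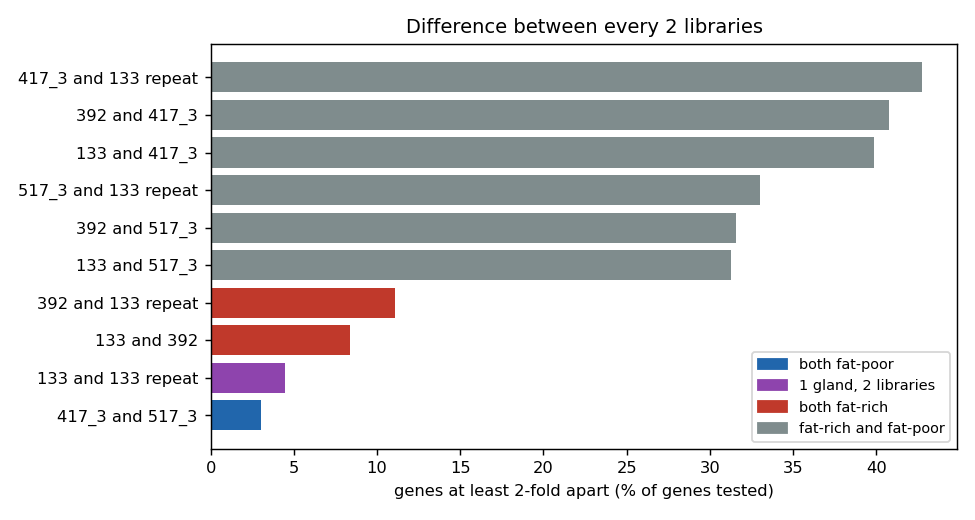
Share of the 15876 genes tested that were at least 2-fold apart on the log2(TPM + 1) scale (x axis, percent) for every pair among the 4 control glands and the repeat library of gland 133 (y axis). The 2 fat-poor glands differ least, at 3.05%, and all pairs of a fat-rich and a fat-poor gland lie at 31.3% or more.

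A gene was counted as separating the pairs when both glands of one pair lay above both of the other and the pair means of log2(TPM + 1) were at least 1 apart, which is 2-fold. On this scale the difference understates the fold of genes near 1 TPM. By this rule 1759 genes were higher in the fat-rich pair, 11.1% of the genes tested, and 3504 were higher in the fat-poor pair, 22.1%, which makes 33.2% in either direction. With the stricter demand that the nearest glands of the pairs were 2-fold apart, the shares were 7.29% and 12.9%. With the repeat library in place of the first library of gland 133, 1466 and 3258 of them still counted, and none turned its direction. The balance between the directions rests on the scaling of the libraries. The median difference over all genes tested, fat-rich minus fat-poor, was -0.30, and after median-of-ratios scaling, which brought it to 0.04, 2698 genes were higher in the fat-rich pair and 2055 in the fat-poor pair, 56.8% and 43.2% of those counted in place of 33.4% and 66.6%.

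Transcript length moved with the comparison. Among genes averaging 10 TPM or more, the median difference, fat-rich minus fat-poor, was -0.16 in the shortest of 5 equal groups of transcripts and -0.78 in the longest. Between glands 417_3 and 517_3 it was 0.02 and 0.35, and between both libraries of gland 133 it was -0.15 and 0.02. Its part in the results was not tested. Of the 1759 genes higher in the fat-rich pair, 1709 were in none of the adipocyte, fatty acid synthesis or brown fat lists, and of the 3504 higher in the fat-poor pair, 3498 were in none of them.

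Adipocyte genes went with Adipoq, which lies on chromosome 16 at 23146536 to 23158028 of GRCm38, plus strand. Of 9 listed adipokines and secreted adipocyte proteins, all of them tested, 7 were higher in the fat-rich pair, with a median difference over the list of 7.04. Retn, which encodes resistin, was 1074, 991, 3.92 and 4.37 TPM in glands 133, 392, 417_3 and 517_3, in that order throughout, and 1529 TPM in the repeat library, a difference of 7.65. Lep, the satiety hormone leptin, was 355, 439.7, 1.3 and 0.95 TPM. Both genes stood high in each fat-rich gland and at a few TPM or less in each fat-poor gland. Cfd, the complement protease adipsin, was 5043, 11076, 52.2 and 60.8 TPM. The exceptions were Apln, the peptide apelin, and Angptl4, an inhibitor of lipoprotein lipase. Angptl4 was 108, 252, 304 and 312 TPM, with the higher values in the fat-poor glands and a difference of -0.89 that did not reach 2-fold.

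**Figure D2:**
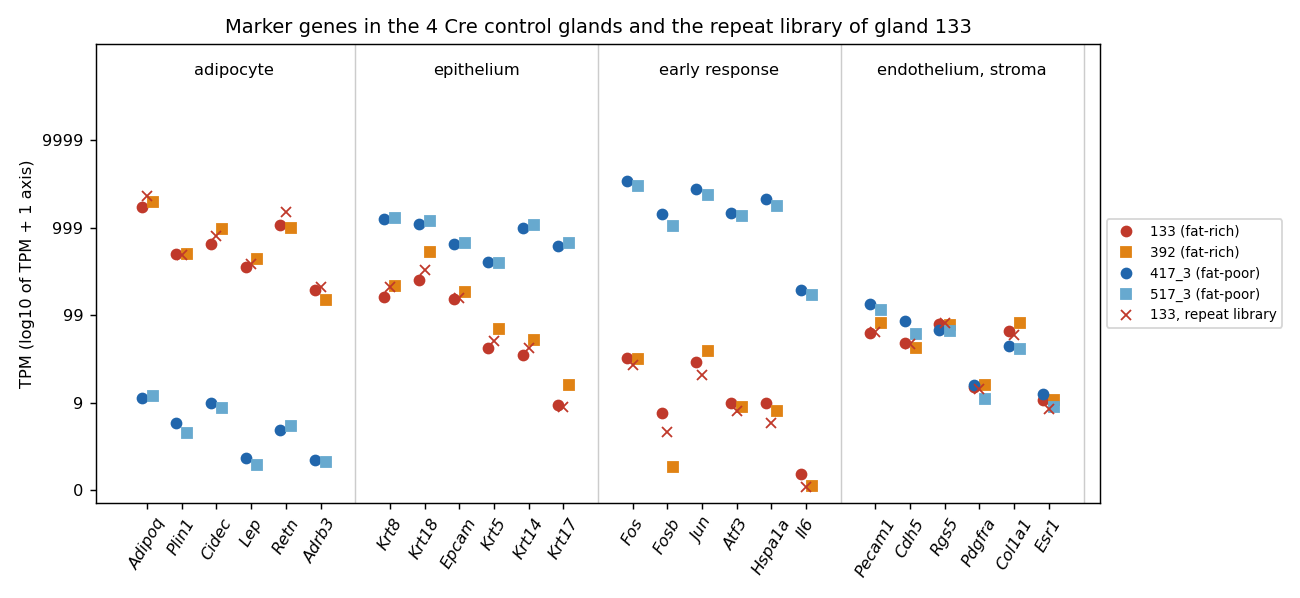
TPM of 24 genes (x axis) in each of the 4 control glands and in the repeat library of gland 133 (y axis, log10 of TPM + 1, labelled in TPM), 1 point a library. The adipocyte genes shown lie far higher in the fat-rich glands, and the keratin and early response genes shown lie higher in the fat-poor glands. The endothelial and stromal genes picked for the plot, and Esr1 beside them, lie closer together. Other stromal genes, such as Gsn and Dpt, separated the pairs.

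The machinery of fat storage followed. Of 12 genes of the lipid droplet and of fat breakdown, 11 were higher in the fat-rich pair (median difference 2.81), and the remaining gene, Abhd5, a co-activator of the main fat lipase, was 66.0, 49.1, 41.8 and 34.4 TPM. Plin1, the protein that coats the large lipid droplet of white adipocytes, was 496, 499.6, 4.87 and 3.50 TPM (difference 6.60). Cidec, which fuses lipid droplets, was 641, 963, 8.80 and 7.78 TPM. The lipases themselves were less far apart: Pnpla2, which starts triglyceride breakdown, was 810, 779, 158 and 147 TPM, a difference of 2.38.

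Of 13 genes of fat uptake and triglyceride assembly, 10 were higher in the fat-rich pair, with a median difference of 3.08. Lpl, the lipase that frees fatty acids from blood lipoproteins, was 1296, 1427, 36.0 and 29.1 TPM. Fabp4, an abundant fatty acid carrier that endothelial cells and macrophages also use, was 15810, 21653, 1644 and 1830 TPM, so it stayed abundant in the fat-poor glands. Cd36, a fatty acid transporter, was 839, 756, 510.3 and 408 TPM and did not reach 2-fold. The 3 genes that did not separate the pairs by the rule were Cd36, Lpin1 and Slc27a1.

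Regulators were less far apart than the secreted products. Among 8 adipocyte transcription factors, 6 were higher in the fat-rich pair. Pparg, the master regulator of adipocyte formation, was 119.9, 98.0, 23.2 and 20.4 TPM (difference 2.27), and its partner Cebpa was 289, 387, 64.7 and 61.8 TPM. Cebpb, which acts early in fat cell formation and also in inflammation, went the other way at 84.0, 97.8, 521 and 587 TPM. Among 10 receptors and insulin response genes, 6 were higher in the fat-rich pair and 2 in the fat-poor pair. Adrb3, the adrenaline receptor of adipocytes, was 195, 147, 1.19 and 1.11 TPM. Irs1, an adaptor of the insulin receptor, and Lepr, the leptin receptor, were the 2 that went the other way, Irs1 at 4.88, 2.44, 23.9 and 9.47 TPM and Lepr at 1.80, 2.31, 10.99 and 7.94 TPM.

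The 2 fat-rich glands were not alike in their lipogenic and thermogenic transcripts. Of 12 genes of de novo fatty acid synthesis, 6 were higher in the fat-rich pair and 1 in the fat-poor pair, and 11 of the 12 were at least 2-fold higher in gland 133 than in gland 392. Fasn, the fatty acid synthase, was 2045, 179, 101 and 106 TPM, with 2854 TPM in the repeat library, and the difference of 2.54 became 0.79 without gland 133. Gland 392 lay nearer to the fat-poor glands than to gland 133 for this gene, and without gland 392 the list's count in the fat-rich direction was 10 of 12. Scd1, which desaturates fatty acids, was 6276, 1436, 99.9 and 74.3 TPM. Fads2, which makes polyunsaturated fatty acids, was the gene higher in the fat-poor pair, at 22.6, 14.6, 168 and 118 TPM.

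Of 10 genes of brown and beige fat, 9 passed the low-value limit, 5 of them higher in the fat-rich pair and 2 in the fat-poor pair. Ucp1, the uncoupling protein that makes heat in brown fat, was 139, 7.58, 0.37 and 0.22 TPM, and 196 TPM in the repeat library. It was high in gland 133, low in gland 392 and below 1 TPM in both fat-poor glands. Cox8b, a subunit of the respiratory chain used in brown fat and muscle, was 1178, 474, 2.69 and 2.30 TPM, the furthest apart of the list with 7.74. Pdk4, a kinase that holds pyruvate back from oxidation, was 31.5, 31.2, 449 and 339 TPM, higher in the fat-poor pair by 3.60.

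Genes in none of the 32 lists set down for the comparison, at 10 TPM or more on average in the higher pair, were led in the fat-rich pair by adipocyte enzymes. Car3, the carbonic anhydrase that is abundant in fat, was 8212, 7387, 55.9 and 52.7 TPM. Ces1d, a carboxylesterase that hydrolyses triglycerides, was 570.2, 627, 3.92 and 3.10 TPM. The other members of the first 15 were Ifi27l2a, Orm1, Mucl2, Fcor, Slc7a10, Pnpla3, Tmem45b, Mrap, Myl1, Retnla, Ankef1, Ces1f and Nnmt, with differences from 7.03 for Ifi27l2a, an interferon-inducible gene, down to 5.35 for Nnmt, the nicotinamide methyltransferase. Within them Pnpla3, a lipid droplet hydrolase, was 166, 45.8, 0.31 and 0.14 TPM, and was thus lower in gland 392 than in gland 133, as the lipogenic genes were. Myl1 is a muscle gene and Retnla a macrophage gene, and both belong with groups described next.

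Some genes of resident macrophages and of mast cells were higher in the fat-rich glands, often most so in gland 392. Of 14 macrophage and dendritic cell genes that passed the limit, of 16 listed, 6 were higher in the fat-rich pair and 1, Itgax, in the fat-poor pair. After median-of-ratios scaling 10 were higher in the fat-rich pair, and without gland 392, 4 were. Of the 14, 7 were at least 2-fold higher in gland 392 than in gland 133. Mrc1, the mannose receptor of resident macrophages, was 22.5, 48.0, 1.76 and 1.57 TPM, and Cd163, their hemoglobin scavenger receptor, was 3.76, 13.6, 0.90 and 0.47 TPM. The general macrophage genes did not separate the pairs: Cd68 was 19.6, 31.8, 19.7 and 19.0 TPM, and Csf1r was 16.5, 33.1, 17.6 and 15.5 TPM. In a list of 12 resident macrophage genes written after the values had been seen, 10 were higher in the fat-rich pair and 2, Timd4 and Lyve1, were not. The furthest apart were Retnla, at 330.5, 922, 7.24 and 9.37 TPM, and Cd209f, a lectin, at 20, 96.1, 0.61 and 0.58 TPM. The mast cell proteases behaved alike among themselves, with Mcpt4 at 13.2, 36.9, 2.23 and 1.31 TPM and Cma1 at 8.43, 27.8, 0.84 and 1.13 TPM. Both were highest in gland 392, and 3 of the neutrophil genes, Ngp, Retnlg and Cxcr2, stayed under the limit.

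Skeletal muscle and blood genes also separated the pairs. All 11 muscle genes that passed the limit, of 13 listed, were higher in the fat-rich pair, and 8 of the 11 were at least 2-fold higher in gland 392 than in gland 133. Genes near 0 in the fat-poor glands, such as Ckm and Tnnc2 below, could pass the limit only through the fat-rich pair. With no filter on low values, all 13 were higher in the fat-rich pair. Ckm, the creatine kinase of muscle, was 52.2, 436, 0.28 and 0.59 TPM, and Tnnc2, the calcium sensor of fast fibers, was 88.6, 528, 0.53 and 0.59 TPM. The summed level of the 13 genes was 518, 3454, 16.2 and 14.97 TPM. Myh4 and Actn3, markers of the fastest fibers, were at 103 and 128 TPM in gland 392 and at 0.78 TPM or less in the other 3 glands, so they did not pass the limit. Of 6 red blood cell genes, 5 passed and all 5 were higher in the fat-rich pair. Hbb-bs, a beta-globin, was 1151, 6047, 224 and 293 TPM, again highest in gland 392. Globin copies are nearly identical, so their split between genes is uncertain.

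Stroma was divided. Of 14 genes of fibroblasts and adipocyte progenitors, 6 were higher in the fat-rich pair and 1, Fbn1, in the fat-poor pair. Gsn, the actin-severing protein gelsolin, was 2649, 4302, 319 and 313 TPM and Clec3b, which encodes tetranectin, was 91.7, 189.7, 18.3 and 20.7 TPM. The progenitor receptor Pdgfra differed little, at 14.01, 15.1, 14.8 and 10.02 TPM. Of 14 collagen and matrix genes, 6 were higher in the fat-rich pair and none in the fat-poor pair. Col5a3, a minor fibrillar collagen, was 37.0, 34.0, 6.50 and 4.97 TPM (difference 2.45). Col1a1, a chain of the most abundant fibrillar collagen, was 64.1, 81.0, 43.8 and 39.5 TPM and did not reach 2-fold. Of 12 further stroma genes listed after the values had been seen, 7 were higher in the fat-rich pair and 2 in the fat-poor pair, among the first Dpt, a matrix protein, at 225, 312, 10.8 and 14.2 TPM, and among the second C3, the complement component, at 142, 141, 579.7 and 452 TPM.

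The mitochondrial lists were mixed. Of 18 nuclear genes of fatty acid oxidation and mitochondrial energy, 7 were higher in the fat-rich pair and none in the fat-poor pair. Cpt2, which brings fatty acids into the mitochondrial matrix, was 66.3, 64.9, 18.6 and 16.01 TPM. Of the 13 mitochondrially encoded genes, 8 were higher in the fat-rich pair, 13 without gland 392 and 5 without gland 133. Their summed share of all TPM was 19.1% in gland 133, 7.79% in gland 392, 5.16% in gland 417_3 and 4.77% in gland 517_3, but 10.3% in the repeat library of gland 133. For mt-Co2, a subunit of cytochrome oxidase, both libraries of that gland gave 32928 and 4446 TPM. Over the list the median difference between both libraries of gland 133 was 0.56, against 1.20 between the pairs.

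Hox genes, which lie in 4 clusters and keep in adult tissue the positional code laid down along the body axis, separated the pairs cluster by cluster. They were listed after their values had been seen. All 6 Hoxc genes that passed the limit, of 9, were higher in the fat-rich pair, and so were 6 of 7 Hoxa genes, of 11. Genes low in the fat-poor glands, such as Hoxc8 and Hoxc6 below, passed the limit through the fat-rich pair, which favours counts in that direction. With no filter on low values the counts were 6 of 9 Hoxc and 6 of 11 Hoxa genes. Fewer of the others were higher in the fat-rich pair, 2 of 8 Hoxb genes (of 10) and 1 of 4 Hoxd genes (of 9). These counts are too small to be set against the 11.1% of all genes tested. When the nearest glands had to be 2-fold apart, 0 of 8 Hoxb genes and 1 of 4 Hoxd genes counted. None of the 4 clusters held a gene higher in the fat-poor pair. Hoxc8, a gene of the thoracic region, was 30.6, 64.3, 0.93 and 1.05 TPM, with 16.1 TPM in the repeat library. Its neighbour Hoxc6 was 17.3, 21.2, 0.87 and 1.09 TPM. By contrast Hoxd9 was 12.97, 12.5, 10.3 and 10.5 TPM and Hoxd8 was 15.8, 14.9, 12.7 and 12.9 TPM, nearly level over the 4 glands. Gland position is not given, so it cannot be told apart from the other differences between the pairs. In the 6 tumors of the same table Hoxc8 ran from 0.04 to 9.64 TPM. The summed level of the 9 Hoxc genes was 68.4, 123.8, 4.84 and 4.92 TPM in the glands and 1.14 to 25.7 TPM in those 6 tumors. In the spontaneously arising tumors labelled non-TRIM24, whose genotype is given as unknown, it ran from 5.4 to 92.2 TPM. Of these tumors, FVB001 and FVB002 were themselves rich in Adipoq, at 4315 and 1525 TPM, and 219 was at 3.31 TPM. The range therefore does not tell whether high Hoxc levels occur outside fat-rich tissue.

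**Figure D3:**
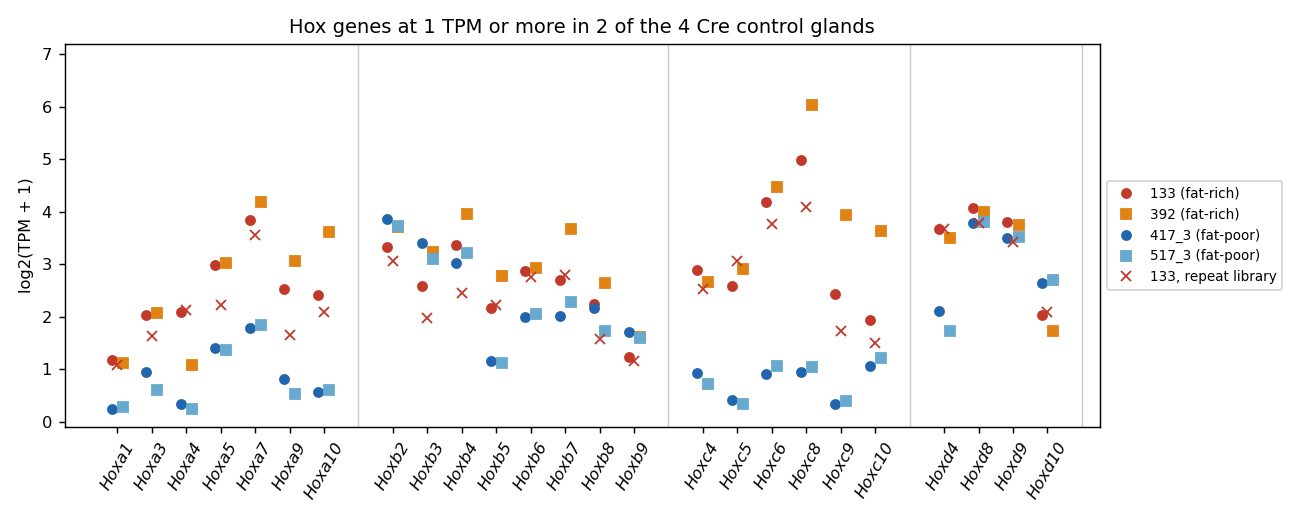
log2(TPM + 1) of the 25 Hox genes that passed the limit of 1 TPM in 2 of the 4 glands (x axis, ordered by cluster), 1 point for each control gland and for the repeat library of gland 133. The Hoxa and Hoxc genes lie lower in the fat-poor glands, while most Hoxb and Hoxd genes lie close together.

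Epithelial transcripts took a larger share of the TPM in the fat-poor pair. Of 22 luminal genes, 16 were higher in the fat-poor pair and none in the fat-rich pair, with a median difference of -1.63, and their summed level was 1401, 2216, 6176 and 6325 TPM. Krt8, a keratin of luminal cells, was 158, 213, 1243 and 1291 TPM. Epcam, an adhesion molecule of all simple epithelia, was 153, 183, 642 and 661 TPM. Not every luminal gene followed: Prom1 was 10.4, 18.6, 11.2 and 11.9 TPM and Ltf, which encodes lactoferrin, was 99.6, 180.4, 85.6 and 98.6 TPM, highest in gland 392.

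Basal genes stood further apart than luminal ones. Of 12, 10 were higher in the fat-poor pair (median difference -2.90), and the summed level of the list was 425, 579, 5179 and 5272 TPM. Krt17, a keratin that basal cells share with hair follicles and that rises in stressed epithelium, was 8.49, 14.8, 610 and 659.8 TPM (difference -5.70). Krt14, the standard basal keratin, was 34.2, 50.7, 987 and 1064 TPM, and Acta2, the smooth muscle actin that lets basal cells contract, was 157, 185, 1413 and 1498 TPM. Vessel walls also use Acta2, Myh11 and Tagln. By contrast Oxtr, the oxytocin receptor of myoepithelial cells, was 22.7, 26.1, 25.2 and 25.9 TPM and Trp63, the basal transcription factor, was 6.49, 7.60, 13.7 and 9.99 TPM. The list thus held members far apart between the pairs beside members that did not reach 2-fold.

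Milk genes were higher in the fat-poor pair for 13 of 16, yet gland 392 set much of this. Of the 16, 9 were at least 2-fold lower in gland 392 than in gland 133. Csn2, the main mouse casein, was 2844 TPM in gland 133, 30.3 in gland 392, 4043 in gland 417_3 and 4112 in gland 517_3, and 2937 in the repeat library. Gland 133 therefore lay near the fat-poor glands for this casein, and without gland 392 the difference was -0.52. Csn1s1, another casein, was 1796, 53.9, 1312 and 1263 TPM and did not separate the pairs. Wap, the whey acidic protein, was 10.7, 0.20, 303 and 367 TPM and separated them with both fat-rich glands low. The control colony was of virgin females, and milk transcripts in virgin glands are known to vary with the estrous cycle, whose stage is not given.

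Hormone-responsive genes followed in part. Of 13 listed, 12 passed the limit, with 6 higher in the fat-poor pair and 1, Tnfsf11, which encodes the progesterone target RANKL, higher in the fat-rich pair at 3.72, 11.1, 2.76 and 1.97 TPM. After median-of-ratios scaling 3 of the 12 were higher in the fat-poor pair. Wnt4, another progesterone target, was 5.47, 7.63, 21.9 and 28.4 TPM. The estrogen receptor Esr1 differed little, at 9.63, 9.68, 11.6 and 8.02 TPM, although the epithelial genes around it were several-fold higher in the fat-poor pair. Proliferation genes were higher in the fat-poor pair for 14 of 15, with a median difference of -1.55. Mcm5, a licensing factor of DNA replication, was 6.60, 4.12, 37.7 and 35.0 TPM and Mki67, the antigen Ki-67, was 3.81, 1.64, 19.4 and 9.66 TPM.

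Skin, lymph node and lymphocytes are other tissues and cells that a dissected gland can hold. Of 8 skin and hair genes that passed the limit, of 14 listed, 4 were higher in the fat-poor pair, 3 of which were hair keratins at 5.21 TPM or less, while the skin barrier genes Krt1, Lor and Flg were under 1 TPM in all 4 glands. Of 8 genes of lymph node stroma, 4 were higher in the fat-poor pair and none in the fat-rich pair, with a median difference of -1.57. Their summed level was 88.8, 144.6, 1042 and 1204 TPM, most of it in the fat-poor glands from Glycam1, which is also in the milk list, at 44.7, 1.27, 821 and 960.5 TPM. Ccl21a, a chemokine that draws lymphocytes into lymph nodes, was 19.1, 41.8, 131 and 154 TPM and Madcam1, an adhesion molecule of their vessels, was 1.87, 1.22, 12.4 and 14.5 TPM. Of 15 T and NK cell genes, 3 were higher in the fat-poor pair (5 without gland 392) and 2 in the fat-rich pair. These counts lie near the shares over all genes tested, 22.1% and 11.1%, and are not a result about these cells. Of 12 B and plasma cell genes that passed, of 14, 2 were higher in the fat-rich pair. Yet 11 of the 12 were at least 2-fold higher in gland 392 than in gland 133. Without gland 133 the count in the fat-rich direction was 8 of 12. Ighm, the heavy chain of IgM, was 120.3, 2215, 179 and 188 TPM.

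Blood endothelium was nearly level between the pairs, with a median difference of -0.13. Of 12 blood endothelial genes, 11 did not separate the pairs. Pecam1, an adhesion molecule at endothelial junctions, was 62.2, 81.1, 132 and 114 TPM, and Tek, an angiopoietin receptor, was 10.3, 11.7, 13.5 and 10.2 TPM. The exception, Egfl7, a secreted vessel factor, was 189, 246, 49.5 and 61.6 TPM. Of 6 lymphatic genes, 3 were higher in the fat-poor pair, led by Pdpn, a glycoprotein that basal epithelium and fibroblasts also carry, at 5.87, 12.1, 72.2 and 66.4 TPM, while Lyve1 was 2.18, 4.91, 3.37 and 2.63 TPM. Of 6 pericyte genes, 2 were higher in the fat-rich pair and 1, Notch3, in the fat-poor pair, and of 8 Schwann cell genes that passed, of 9, 1 and 2 were, the latter being 4 without gland 392. The Schwann cell counts lie near the shares over all genes tested, 11.1% in the fat-rich and 22.1% in the fat-poor direction. The pericyte list is too small to be set against these shares. Neither is a result about these cells. The median difference of the lymphatic list was -0.97. Of 13 interferon-stimulated genes, 12 did not separate the pairs and 9 were at least 2-fold higher in gland 392 than in gland 133. Without gland 392, 4 were higher in the fat-poor pair. Ifit3 was the exception, at 12.3, 45.9, 6.52 and 6.16 TPM.

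**Figure D4:**
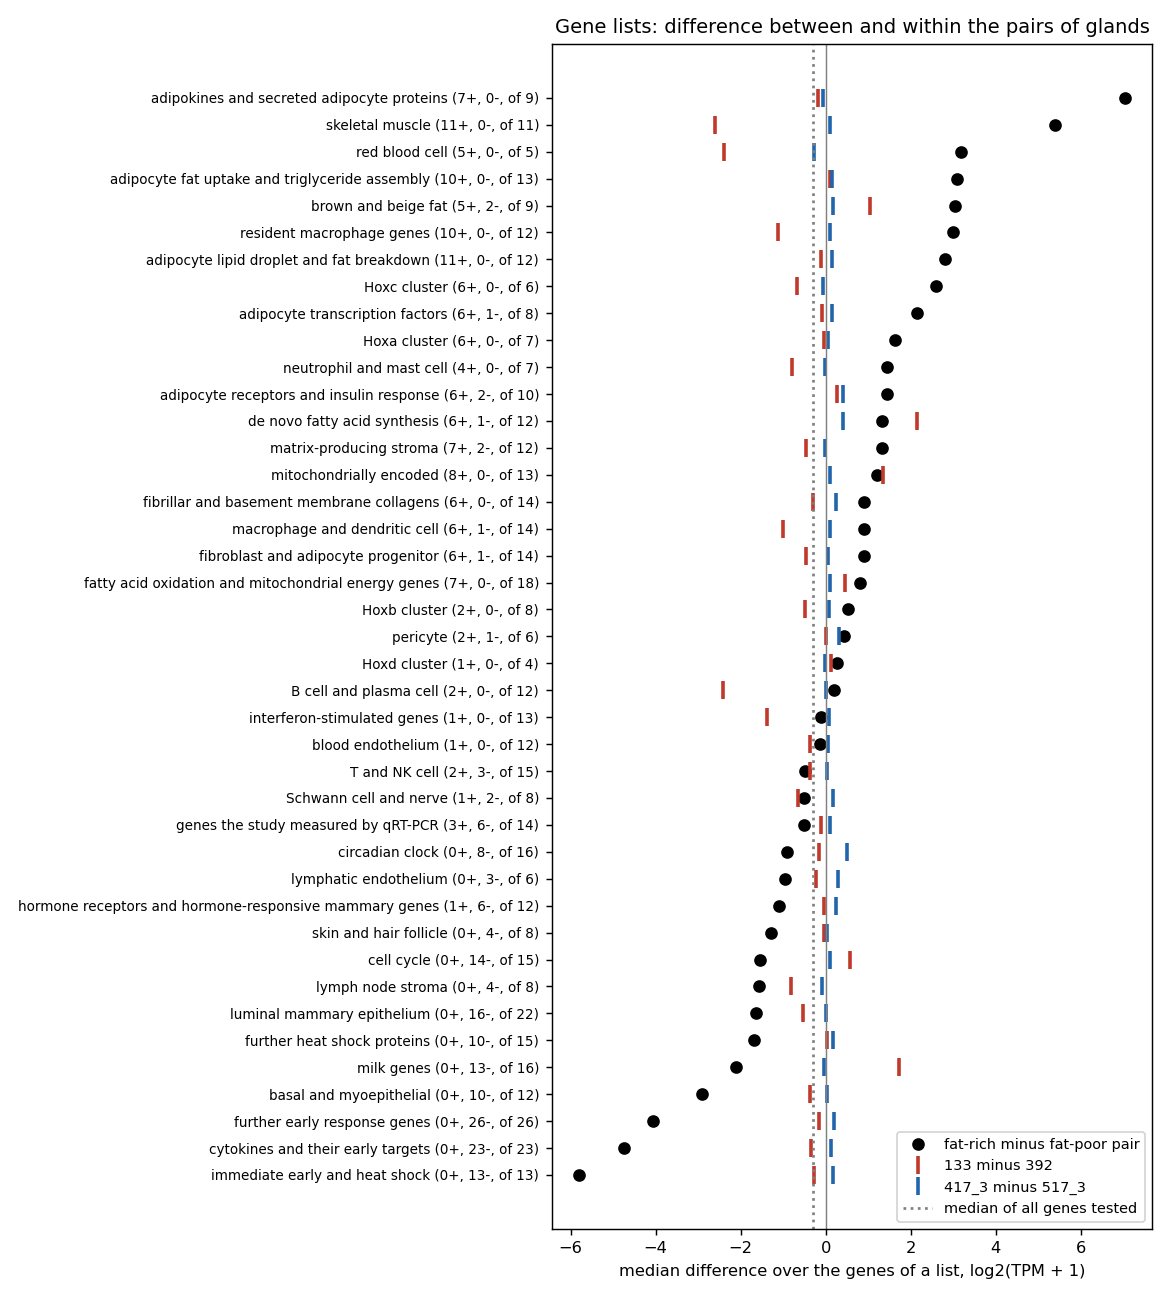
Median difference of log2(TPM + 1) over the genes tested of each of 41 gene lists (x axis): black points give the fat-rich minus the fat-poor pair, red ticks 133 minus 392, blue ticks 417_3 minus 517_3, and the dotted line the median of all genes tested, -0.30. In brackets stand the number of genes higher in the fat-rich pair (+), in the fat-poor pair (-) and the number tested. Lists run from 7.04 for adipokines to -5.80 for immediate early and heat shock genes, and the blue ticks stay close to 0.

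The largest contrast outside fat lay in the early response. Immediate early genes encode transcription factors and their regulators that cells switch on within minutes of a stimulus without new protein synthesis, and heat shock genes encode chaperones that refold damaged proteins. Both kinds answer to many stimuli, and the interval between dissection and RNA isolation is not given in the sources used here. Their promoters hold short sites for factors that lie ready in the cell: heat shock factor on heat shock elements, CREB on the CRE, and NF-kB. The 250 bases before the start of 5 of the genes that stood furthest apart are shown to let a reader see these letters, from RefSeq on GRCm38.p6, 5′ to 3′ on the strand of the gene. Capitals mark a heat shock element (GAANNTTC or TTCNNGAA) in both Hsp70 genes, the CRE core (TGACG on either strand) in Fos, and an NF-kB site in both chemokine genes. Hspa1a is at chr17:34972157-34972406, minus strand, Hspa1b at chr17:34959239-34959488, minus strand, Fos at chr12:85473640-85473889, plus strand, Cxcl1 at chr5:90890995-90891244, plus strand, and Cxcl2 at chr5:90903649-90903898, plus strand.
Hspa1a: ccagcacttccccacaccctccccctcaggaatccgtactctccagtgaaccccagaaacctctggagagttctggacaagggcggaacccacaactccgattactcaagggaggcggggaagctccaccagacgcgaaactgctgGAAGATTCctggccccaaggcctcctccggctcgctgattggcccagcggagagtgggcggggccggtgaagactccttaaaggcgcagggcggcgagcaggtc
Hspa1b: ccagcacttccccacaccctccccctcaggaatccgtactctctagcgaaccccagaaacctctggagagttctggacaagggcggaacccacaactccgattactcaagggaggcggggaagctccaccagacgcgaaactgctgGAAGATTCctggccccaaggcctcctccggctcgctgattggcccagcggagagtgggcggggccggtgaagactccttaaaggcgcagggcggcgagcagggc
Fos: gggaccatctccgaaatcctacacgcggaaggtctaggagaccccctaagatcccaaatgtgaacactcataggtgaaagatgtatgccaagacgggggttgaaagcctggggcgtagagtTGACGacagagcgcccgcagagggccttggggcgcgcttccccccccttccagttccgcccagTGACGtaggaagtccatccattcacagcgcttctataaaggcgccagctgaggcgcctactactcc
Cxcl1: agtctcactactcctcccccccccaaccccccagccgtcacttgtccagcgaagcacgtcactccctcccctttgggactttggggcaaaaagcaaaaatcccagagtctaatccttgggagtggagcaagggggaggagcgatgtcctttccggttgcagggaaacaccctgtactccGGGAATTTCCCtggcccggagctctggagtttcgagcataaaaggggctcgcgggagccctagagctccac
Cxcl2: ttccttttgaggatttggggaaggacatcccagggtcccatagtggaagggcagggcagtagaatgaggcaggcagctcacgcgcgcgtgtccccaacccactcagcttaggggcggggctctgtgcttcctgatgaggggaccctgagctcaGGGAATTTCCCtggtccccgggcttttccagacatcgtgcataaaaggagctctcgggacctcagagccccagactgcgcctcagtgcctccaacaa

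The promoter table holds 1 or more starts for 27025 gene symbols, and a symbol was counted when any of its starts had the letters on either strand. The single match to GAANNTTC or TTCNNGAA in Hspa1a and Hspa1b begins 104 bases before the start in both. Less exact forms of the heat shock element were not searched. These 2 promoters are identical at 247 of 250 bases. A heat shock element of this form stands before 14.5% of all symbols, 3 of the 11 listed immediate early and heat shock genes with an entry (Jun, Hspa1a and Hspa1b) and 5 of 10 further heat shock proteins. The CRE core of Fos begins 129 and 66 bases before the start, and the core is in the window of 6 of those 11 genes against 19.8% of all symbols. The NF-kB letters of Cxcl1 and Cxcl2 form 1 stretch that matches the site in 2 overlapping ways. An NF-kB site stands before 8 of 17 listed cytokine and target genes with an entry, 5 of the 11 immediate early and heat shock genes, both Hsp70 genes and Fos included, and 8.23% of all symbols. The same letters were searched in other lists, among them lipid droplet genes, which go the other way. The heat shock element was in 2 of 19 further early response genes, 0 of 17 cytokine and target genes and 3 of 11 lipid droplet genes, the CRE core in 11 of 19 further early response genes, 3 of 17 cytokine and target genes and 3 of 11 lipid droplet genes, and the NF-kB site in 3 of 19 further early response genes and 2 of 11 lipid droplet genes. An AP-1 site (TGANTCA) was in 0 of the 11 immediate early and heat shock genes, 7 of 17 cytokine and target genes and 7.82% of all symbols, and a C/EBP site (TTGCNNAA) in 0 of 11, 2 of 17 and 10.8%. A match is only a description of letters, and these shares were not tested.

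All 13 immediate early and heat shock genes were higher in the fat-poor pair, with a median difference of -5.80. Their summed level was 308 TPM in gland 133, 381 in gland 392, 21427 in gland 417_3 and 18589 in gland 517_3, with 271 in the repeat library, which makes 2.14% and 1.86% of all TPM in the fat-poor glands against 0.031% and 0.038% in the fat-rich ones. Fos, a subunit of the AP-1 transcription factor, was 31.4, 30.7, 3381 and 3025 TPM, and Fosb, its relative, was 6.61, 0.84, 1437 and 1044 TPM (difference -8.36). No value of a fat-poor gland came near one of a fat-rich gland. Atf3, a stress-induced transcription factor, was 8.93, 7.85, 1487 and 1374 TPM. Hspa1a, the inducible Hsp70 chaperone, was 8.96, 6.95, 2146 and 1756 TPM. Its near-identical neighbour Hspa1b was 20.9, 26.2, 3726 and 2867 TPM, so the split between these copies is uncertain, although both stood far apart between the pairs. The smallest difference of the list was that of Ier2, at 37.7, 55.3, 440.2 and 466 TPM.

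The fat-poor glands stood apart from the tumors as well. In the 6 tumors of the same table the summed level of the 13 genes was 631 to 1156 TPM. It was 234 to 821 TPM in the 3 non-TRIM24 tumors, which are in the separate table of batch 2. Each of the 13 genes was higher in both fat-poor glands than in the 8 other first libraries of the glands' own table. Over all genes tested this held for 2789, or 17.6%. For the sum of the list, the 2 fat-rich glands lay below the 6 tumors of the same table. They lay above the lowest of the 3 non-TRIM24 tumors. Fos was 16.2 to 39.0 TPM in the 6 tumors.

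**Figure D5:**
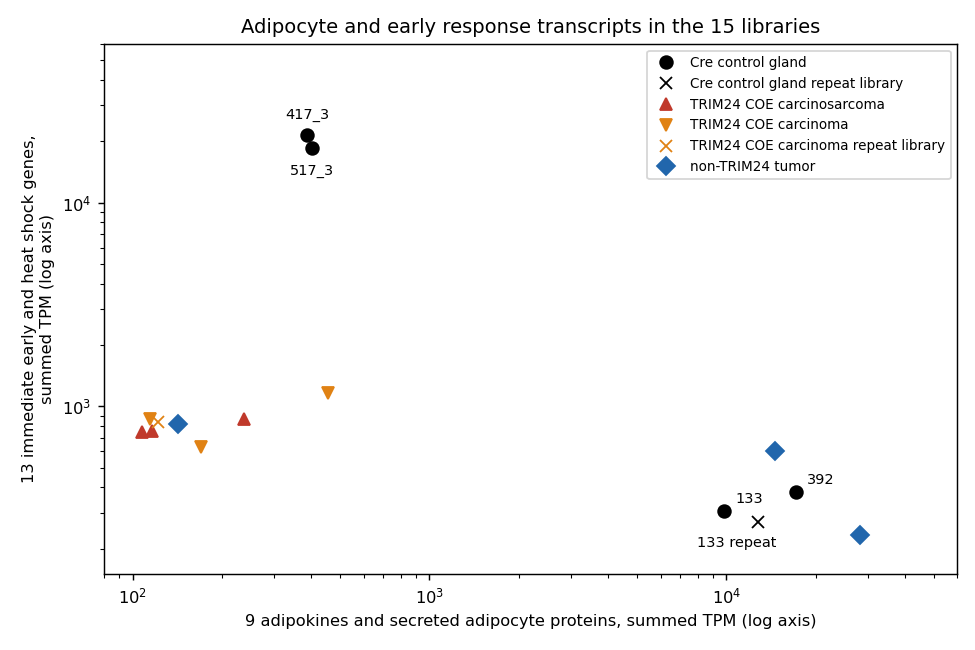
Summed TPM of the 13 immediate early and heat shock genes (y axis, log scale) against the summed TPM of the 9 adipokines and secreted adipocyte proteins (x axis, log scale), 1 point for each of the 15 libraries, with symbols for the groups of the study. Glands 417_3 and 517_3 sit alone at the top left, at 21427 and 18589 TPM of early response genes. Glands 133 and 392 and 2 of the non-TRIM24 tumors sit at the lower right.

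Early response genes outside that list were looked at as well. They were picked with the values in view, so full counts cannot measure how far the response reached. In a further list of 26 early response genes, written after the values had been seen, all 26 were higher in the fat-poor pair, with a median difference of -4.05. Nr4a1, an orphan nuclear receptor induced by many stimuli, was 6.29, 6.46, 693 and 602 TPM. Arc, best known from active neurons, was 0.91, 0.84, 215 and 185 TPM. Feedback inhibitors were among them, with Dusp5, a phosphatase that switches off ERK, at 2.51, 3.75, 217 and 204 TPM. Of 15 further heat shock proteins, 10 were higher in the fat-poor pair and none in the fat-rich pair. The inducible cytosolic chaperone Hsph1 was 19.9, 19.1, 238 and 191 TPM, whereas the mitochondrial chaperone Hspa9 was 151, 143, 238 and 212 TPM and did not reach 2-fold.

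Cytokine genes were looked at in the same way, with the same limit. All 23 genes of a list of cytokines and their early targets, also written after the values had been seen, were higher in the fat-poor pair, with a median difference of -4.73. Il6, a cytokine of acute inflammation, was 0.53, 0.11, 193 and 168 TPM (difference -7.12). Cxcl1 and Cxcl2, chemokines that attract neutrophils, were 4.51, 5.89, 418 and 410.4 TPM and 1.99, 0.89, 199 and 191 TPM. Csf3, the growth factor of neutrophils, was 0.14, 1.01, 78.0 and 79.7 TPM. Sele, which endothelium displays when activated, was 0.29, 0.33, 98.4 and 63.9 TPM. Of the neutrophil genes, S100a8, a calcium-binding protein, was low in all 4 glands, at 4.82, 4.81, 1.99 and 3.31 TPM. Nfkbia, the inhibitor that NF-kB itself induces, was 103, 153, 1369 and 1421 TPM.

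The first 15 genes in none of the 32 lists that were higher in the fat-poor pair were, in order of difference, Rps3a3, Il6, Rps3a2, C2cd4b, Arc, Nr4a1, Cxcl2, Csrnp1, Cxcl1, Sele, Il1b, Mir8094, Csf3, Dusp5 and a. Most are early response or cytokine genes. C2cd4b, a nuclear protein induced in inflamed endothelium, was 0.47, 0.71, 173 and 189 TPM. The gene a, nonagouti, a signal for hair pigment, was 225, 1.24, 937 and 1083 TPM, so gland 133 lay nearer to the fat-poor glands than to gland 392. Rps3a2 and Rps3a3 are near copies of the ribosomal gene Rps3a1. Rps3a3 was 6.32, 4.96, 1237 and 1527 TPM, whereas Rps3a1 was 1727, 2450, 602 and 663 TPM. Their reads cannot be assigned with certainty, and the sum over all 3 copies was 1751, 2470, 3812 and 4417 TPM, a difference of -0.98.

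Of 16 clock genes, 8 were higher in the fat-poor pair and none in the fat-rich pair. The furthest apart, Per1, a clock gene that glucocorticoids and CREB also induce, was 7.86, 10.1, 115 and 79.7 TPM, and Nfil3 was 13.7, 7.91, 93.6 and 95.8 TPM. The core activator Arntl differed little, at 11.5, 8.86, 10.7 and 9.08 TPM. Dbp, an output of the clock, was 8.09, 40.4, 20.9 and 22.2 TPM and Nr1d1, a clock repressor, was 13.1, 57.7, 73.1 and 62.5 TPM, so both were several-fold higher in gland 392 than in gland 133. The hour at which the glands were taken is not given.

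The genes that the study followed by qRT-PCR in tumors and MMTV-Cre controls were themselves divided between the pairs. For Met, the study's figure legend names a control gland by a number that none of these 4 glands carries. For the other genes, whether these 4 glands were among those controls is not given in the sources used here. Of 14, 3 were higher in the fat-rich pair and 6 in the fat-poor pair. Sncg, gamma-synuclein, which adipocytes also make, was 1253, 1340, 89.2 and 108 TPM, with 3.48 to 73.4 TPM in the 6 tumors. Lgals1, the sugar-binding protein galectin-1, was 1154, 1489, 114 and 149.5 TPM, with 743 to 7546 TPM in the tumors, so its fat-rich values lay inside the range of the tumors and its fat-poor values below it. Aldh1a1, an aldehyde dehydrogenase, was 54.7, 55.2, 6.29 and 5.47 TPM.

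Of the 6 higher in the fat-poor pair, Cdh1, the epithelial cadherin, was 39.1, 36.9, 196 and 152 TPM, with 1.29 to 124 TPM in the tumors. Trp53, which encodes the tumor suppressor p53, was 35.0, 32.8, 109.5 and 107 TPM, Mif, a cytokine, was 186, 255, 555 and 665 TPM, and Vtcn1, an immune checkpoint ligand, was 8.19, 5.18, 19.97 and 15.1 TPM. Syt9, a vesicle protein, was 3.08, 1.27, 9.51 and 7.68 TPM and Ltk, a receptor kinase, was 1.67, 1.95, 5.59 and 4.81 TPM. Of the 5 that did not separate the pairs, Trim24 itself was 14.5, 18.4, 22.4 and 15.9 TPM and Met, the HGF receptor, was 20.9, 21.2, 42.4 and 29.7 TPM. Vim, the intermediate filament vimentin, was 535, 765, 412 and 428 TPM and Fn1, fibronectin, was 17.1, 26.3, 26.1 and 27.0 TPM. Cdkn2a, a cell cycle inhibitor, was 2.49, 16.5, 3 and 3.41 TPM, high in gland 392 alone.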

How the data were processed

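RNA-seq libraries of 4 whole mammary glands of MMTV-Cre mice, 1 library a mouse, were compared with each other, with a repeat library of gland 133 and, for context, with the tumors of the series. The deposited values are TPM, which per the authors came from reads trimmed, aligned to GRCm38 with STAR and quantified with RSEM on GENCODE M14, and the sample labels list TopHat, Cufflinks and RSEM. The labels name mirVana isolation and a stranded total RNA kit, whereas the methods name another isolation kit and another library kit, so which was used for these glands is not settled here. Each library sums to 1000000 TPM, and no counts were used. The study prints whole-number values for these glands in its list of differentially expressed genes, but they were not used here. Depth and counting error were therefore not estimated. Without certain strand information, overlapping genes cannot be told apart.

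Gene symbols were matched for 51633 of 51826 identifiers. Differences are those of mean log2(TPM + 1) between the pairs, and genes at 1 TPM or more in at least 2 of the 4 glands were compared. A gene counted when the pairs did not overlap and differed by at least 2-fold. Because the pairs were set by Adipoq, no p-value was computed. The members, the 32 gene lists and the rules were chosen with earlier results of these data known, and 9 further lists after the values had been seen. Named genes were 2 to 6 a list, those furthest apart in its majority direction and those going the other way, plus the 15 furthest apart in each direction in none of the 32 lists, at 10 TPM or more in the higher pair and also counting with the repeat library, clone names and receptor segments left out, and the genes of the study's qRT-PCR. Genes named because they did not separate the pairs or stayed under the limit, genes of the added lists, and genes beyond the limit of 6 in a list are not covered by that rule, since they were picked with the values in view. Values were computed in Python 3.11.15 with pandas 2.3.3, and the rule was tested on simulated data with known differences. Coordinates of Adipoq are from GENCODE M21 on GRCm38. Transcript lengths were medians over its transcripts.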

Additional observations from a re-analysis of the deposited data

Results flagged for a closer look

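In 14 of the 191 list means and named genes looked at, the lowest or highest of the 4 glands lay so far from the nearest other gland that the gap, as a share of the whole range on log2(TPM + 1), exceeded Dixon's critical value for 4 samples. The critical value is set so that chance picks out about 1 in 20 groups of 4 like samples. These glands form pairs set by a readout and many of the genes were chosen for separating them, so the number found cannot be read against that rate. Gland 392 was the one apart for 9 genes. It was the high gland for Ighm (0.848), for the macrophage genes Cd68 (0.928) and Csf1r (0.841), for Cdkn2a (0.855) and for the fast muscle genes Myh4 (0.881) and Actn3 (0.954). It was the low gland for the caseins Csn2 (0.924) and Csn1s1 (0.899) and for Ngp (0.861), which was 0.58, 0.14, 0.58 and 0.51 TPM in glands 133, 392, 417_3 and 517_3. Gland 133 was the high one for Apln (0.856) and the low one for Nr1d1 (0.859), for Fn1 (0.927) and for the mean of the Schwann cell and nerve list (0.866). Gland 517_3 was the low one for the mean of the pericyte list (0.833).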

How the results depend on the processing

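The counts of genes, 1759 higher in the fat-rich and 3504 in the fat-poor pair, became 1070 in the fat-rich direction at a mean of 5 TPM or more, 2698 and 2055 after median-of-ratios scaling, and 1157 and 2048 when the gap between the nearest glands had to be 2-fold. In the fat-poor direction the count was 2775 without gland 417_3 and 4402 without gland 517_3. Over 142 named genes and their alternatives, 1657 of 1697 values kept their direction and side of the limit, 30 fell short of it, 10 came to pass it and 0 reversed. The following are median differences of lists. With 0.1 TPM added they were lipid droplet 3.19, fat uptake 3.42, brown fat 4.14, neutrophil and mast cell 2.25 and lymphatic -1.72. With no filter they were brown fat 2.17, skin -0.48 and neutrophil and mast cell 0.66. At a mean of 5 TPM or more they were lipid droplet 3.10, brown fat 3.95, skin -0.33, lymph node stroma -2.26, neutrophil and mast cell 3.06, lymphatic -2.52, pericyte 0.62 and Schwann cell -1.23. After median-of-ratios scaling they were lipid droplet 3.19, fat uptake 3.42, adipokines 7.42, adipocyte transcription factors 2.53, receptors 1.81, luminal -1.24, basal -2.50, skin -0.92, T and NK cell -0.13, blood endothelium 0.25, pericyte 0.80, fibroblast 1.29, collagens 1.28, immediate early -5.41, fatty acid oxidation 1.21 and qRT-PCR genes -0.14. Rescaled without mitochondrial and adipocyte genes they were lipid droplet 3.01, fat uptake 3.29, transcription factors 2.35, luminal -1.43, blood endothelium 0.063 and pericyte 0.62. With the repeat library lymphatic was -1.27. Leaving out 1 gland at a time gave 2.63 to 2.82 for lipid droplet, 2.90 to 3.21 for fat uptake, 1.91 to 2.27 for transcription factors, -1.35 to -0.69 for hormone response, -1.65 to -1.09 for skin, -0.60 to -0.067 for T and NK cell, -1.93 to -0.93 for lymph node stroma, -0.31 to 0.11 for blood endothelium, -0.90 to 0.10 for Schwann cell and -0.51 to 0.87 for interferon. It also gave wider ranges for lists in which glands 133 and 392 differ, 0.23 to 2.75 for fatty acid synthesis, -0.77 to 1.32 for B cell, 0.35 to 1.60 for macrophage, -2.86 to -1.22 for milk, 3.84 to 7.42 for muscle, 1.81 to 4.41 for red blood cell and 0.56 to 1.84 for mitochondrially encoded. The causes were not tested. Averaging glands 417_3 and 517_3 into 1 sample, chosen after seeing the data, gave 1793 and 3512 genes. No paired analysis was possible because the pairs are 4 different glands with no shared number. Depth and counting error were not estimated.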

Other observations

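Further genes that separated the pairs were named after their values had been seen. Mt2, a metallothionein induced by metals and glucocorticoids, was 113, 147, 2830 and 3086 TPM in glands 133, 392, 417_3 and 517_3, in that order throughout. Jund, a subunit of AP-1, was 124, 196, 2714 and 2885 TPM. Has2, which makes hyaluronan, was 0.56, 0.54, 58.9 and 40.9 TPM. In the other direction Ghr, the growth hormone receptor, was 288, 393, 24.4 and 16.6 TPM, and Neat1, a nuclear long noncoding RNA, was 708, 900.2, 140.5 and 89.3 TPM. Gapdh, a glycolytic enzyme often used as a reference, was nearly level at 488, 472, 441 and 445 TPM. Actb, cytoplasmic actin, was 1005, 1978, 1996 and 1925 TPM, with gland 133 lower than the other glands.

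The near copies of Rps3a1 varied among the tumors as well. Rps3a3 was 5.06 TPM in tumor 273_5 and 6.44 TPM in tumor 64, near the 6.32 and 4.96 TPM of glands 133 and 392. In the other 4 tumors of the same table it ran from 404 to 817 TPM, below the 1237 and 1527 TPM of glands 417_3 and 517_3. Adipoq was 23.8 TPM in tumor 273_5 and 1.27 TPM in tumor 64. In the 3 non-TRIM24 tumors, Rps3a3 was 50.3 TPM in FVB001, 313 TPM in FVB002 and 565 TPM in 219. Adipoq was 4315, 1525 and 3.31 TPM in these tumors.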
